A study of Mus musculus with 18 samples.

Results

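Autophagy machinery here means 37 mouse genes for the proteins that start, build, close and load autophagosomes. They were listed by name for their role, with earlier results of these data known, and found by symbol in a table of 54186 symbols. All 37 had a row and passed the filter on low counts, which kept 20244 genes. RNA was sequenced in bulk from pancreatic islets of 18 mice on the FVB background aged 6 weeks, with 1 library per mouse and 6 mice per genotype, all kept on the same diet. The hIAPP mice carried a transgene for human islet amyloid polypeptide (IAPP, a hormone secreted with insulin), while in rIAPP mice the transgene coded for the rodent form of the peptide. WT mice carried neither transgene. Both transgenes were placed under the insulin II promoter, which is active in beta cells, so the other cells of an islet were not targeted. The human peptide is prone to aggregate and the rodent peptide is not, so hIAPP against WT asks what the human transgene changed, and rIAPP serves as a control for expression of a transgenic peptide. How many founder lines or transgene copies stood behind each genotype is not given in the sources used here.

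Autophagy encloses cytoplasm in a double membrane, the autophagosome, which then fuses with a lysosome. A kinase complex around ULK1 starts the process, a phosphatidylinositol 3-kinase complex marks the membrane, ATG9, ATG2 and WIPI proteins feed and shape it, and 2 conjugation reactions attach proteins of the LC3 and GABARAP family to it. Cargo receptors such as p62, the product of Sqstm1, tie ubiquitinated proteins and organelles to the attached LC3 or GABARAP, and p62 is itself degraded with its cargo. In beta cells, autophagy is known to remove protein aggregates and surplus secretory granules and organelles. RNA levels do not measure the rate of autophagy.

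Libraries are called here by genotype and a number from 1 to 6 in accession order, which pairs nothing and is not the mouse number in the titles. Total counts ranged from 109.6 to 166.23 M per library and were lower in hIAPP (128.11 ± 13.4 M, SD, n = 6) and rIAPP (137.82 ± 10.5 M) than in WT (155.59 ± 8.88 M). Levels are given as CPM, counts per 1 M after a library total is scaled by its TMM factor, and comparisons as log2 fold changes with their SE from 1 edgeR quasi-likelihood fit of all 18 libraries. A gene was called at a Benjamini-Hochberg adjusted p under 0.05 over all 20244 genes, and every adjusted p below is that edgeR value unless another tool is named. The 3 comparisons share libraries, so each is given by its own values. The row of the mouse Iapp gene was at 25591 to 40079 CPM in WT, 20876 to 30706 in hIAPP and 32830 to 43833 in rIAPP. It does not check the hIAPP labels, since human and mouse sequences of the gene differ. In rIAPP, RNA of the rodent transgene could be counted on the same row, which was not tested. The rIAPP values need not measure the endogenous gene alone. Beta cell markers, with insulin foremost, made up 12.9% ± 0.699 of counts in WT, 10.4% ± 1.90 in hIAPP and 9.20% ± 0.988 in rIAPP, so the tissue matched its label. This sum includes Iapp. Of the 6 beta cell markers, 5 were lower in hIAPP and 5 in rIAPP than in WT. The median log2 fold changes of the 6 were -0.48 and -1.23. In hIAPP against rIAPP, 5 were higher and 1 was lower. Markers of other cells moved with the genotype. Of 13 macrophage markers, 12 were higher in hIAPP than in WT and their summed share ranged from 0.0384 to 0.0859% in hIAPP, 0.0131 to 0.0157% in WT and 0.0101 to 0.0114% in rIAPP. Of 19 acinar markers, 17 were higher in hIAPP and 19 in rIAPP than in WT, with shares of 0.282 to 2.20% in hIAPP, 0.521 to 2.13% in rIAPP and 0.104 to 0.441% in WT. The defining macrophage genes Lyz2 and Cd68 were at 151 to 343 and 7.33 to 28.2 CPM in hIAPP, and at 9.54 to 13.6 and 1.51 to 2.82 CPM in WT. The defining acinar genes Cpa1 and Prss2 were at 182 to 1298 and 152 to 1126 CPM in hIAPP, 306 to 1329 and 283 to 1193 CPM in rIAPP, and 67.1 to 269.8 and 66.2 to 262.8 CPM in WT. Of 7 endothelial markers, all 7 were higher in rIAPP than in WT and lower in hIAPP than in rIAPP, with shares of 0.0572 to 0.0712% in WT, 0.0531 to 0.0693% in hIAPP and 0.0822 to 0.0936% in rIAPP. Of 8 stellate and mesenchymal markers, 6 were higher in hIAPP and 7 in rIAPP than in WT, with shares of 0.0374 to 0.0671% in WT, 0.0600 to 0.137% in hIAPP and 0.103 to 0.181% in rIAPP. Of 7 ductal markers 4 were lower in hIAPP than in WT, of 6 Schwann cell markers 4 were higher, and of 5 erythroid markers 3 were lower. Libraries hIAPP 5 and hIAPP 6 had the highest Lyz2 and Cd68 of all libraries. In bulk RNA, fewer cells of a type and less RNA per cell cannot be told apart.

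Of the 37 genes, 4 were called in each of the 3 comparisons: Ulk2, Wipi1, Map1lc3b and Optn. The DNA just before their RefSeq transcription starts is shown because the RNA of these genes differed among all 3 genotypes. Each stretch runs 5′ to 3′ on the coding strand of GRCm38.p6, as RefSeq gives it, stops before the first annotated exon base, and has any match to the motifs named below in capitals.
Ulk2: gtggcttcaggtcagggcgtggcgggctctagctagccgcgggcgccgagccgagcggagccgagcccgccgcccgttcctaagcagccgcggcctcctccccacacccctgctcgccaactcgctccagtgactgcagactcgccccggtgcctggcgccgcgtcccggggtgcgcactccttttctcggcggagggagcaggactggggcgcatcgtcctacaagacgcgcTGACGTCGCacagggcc
Wipi1: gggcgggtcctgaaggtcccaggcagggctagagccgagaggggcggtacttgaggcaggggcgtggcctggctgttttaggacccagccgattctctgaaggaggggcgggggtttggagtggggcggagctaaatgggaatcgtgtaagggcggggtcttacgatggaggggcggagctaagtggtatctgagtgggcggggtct
Map1lc3b: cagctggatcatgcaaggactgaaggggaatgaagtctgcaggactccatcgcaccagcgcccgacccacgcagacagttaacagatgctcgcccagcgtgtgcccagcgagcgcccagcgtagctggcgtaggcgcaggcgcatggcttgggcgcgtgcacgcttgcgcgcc
Optn: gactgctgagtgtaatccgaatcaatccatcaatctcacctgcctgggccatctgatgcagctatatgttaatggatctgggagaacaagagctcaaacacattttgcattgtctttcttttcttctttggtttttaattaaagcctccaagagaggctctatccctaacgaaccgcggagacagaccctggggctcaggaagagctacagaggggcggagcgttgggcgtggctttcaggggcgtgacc

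These stretches lie at chr11:61855093-61855342 (Ulk2, minus strand), chr11:109611433-109611639 (Wipi1, minus strand), chr8:121590188-121590360 (Map1lc3b, plus strand) and chr2:5064118-5064367 (Optn, minus strand). The Wipi1 stretch lies inside the longest GENCODE M21 model of the gene, which starts further upstream. The Map1lc3b stretch ends where the GENCODE model of that gene begins, short of the RefSeq start. In windows from 250 bases before to 50 bases after the RefSeq start, which 31 of the 37 genes had, 3 motifs were searched on both strands. TGACNNNGC, the core of the antioxidant response element, had a match in 12.4% of all 32851 windows and in windows of Atg13, Map1lc3b, Tax1bp1 and Ulk2. The Ulk2 match, TGACGTCGC, begins 17 bases before the start and is the stretch in capitals, while the Map1lc3b match, TGACTCGGC, lies just past the start and outside the printed stretch. CACGTG, the E-box core of the element bound by TFEB, had a match in 7.15% of all windows and in windows of Atg3, Atg5, Atg7 and Atg14. TGATGNAA, the composite element bound by ATF4 with C/EBP proteins, had a match in 3.97% of all windows and in none of the members' windows. Windows of Pik3c3, Map1lc3a, Atg16l1, Atg12, Becn1 and Rb1cc1 were not used here. A match is a description of these letters and not a binding site.

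Levels in WT islets spanned 89.9 times between the highest and the lowest of the 37 genes on a scale per length (RPKM, mean CPM per kilobase of all exons of the gene). Gabarapl1, an LC3-like protein, was highest at 139.55 RPKM. Gabarap (84.3) and Sqstm1 (80.6) followed and differed by less than their spread over mice. Nbr1 (39.9), Gabarapl2 (25.7) and Tax1bp1 (20.04) came next, and these 6 were the genes over 20 RPKM. The median gene, Atg101, was at 6.61 RPKM, 27 genes were under 10 RPKM, and Ulk1 (2.49) and Atg7 (1.55) were lowest. Of the 50-base words of Gabarapl1, 23.1% also occur in 1700101I11Rik, which averaged 102 counts beside 44037. Over 10% of such words were shared with other genes in 8 of the 37, among them Atg9a (30.5%) and Uvrag (17.4%). Within a genotype the genes varied little: the median CV over mice was 6.57% in WT, 6.25% in hIAPP and 6.75% in rIAPP, against 7.74%, 8.17% and 7.93% for the 8638 genes in the same range of CPM. Counting error was small beside this, since the lowest count, 1037 for Atg10, has a Poisson CV of 3.11% and the highest, 57139 for Sqstm1, one of 0.418%.

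**Figure D1:**
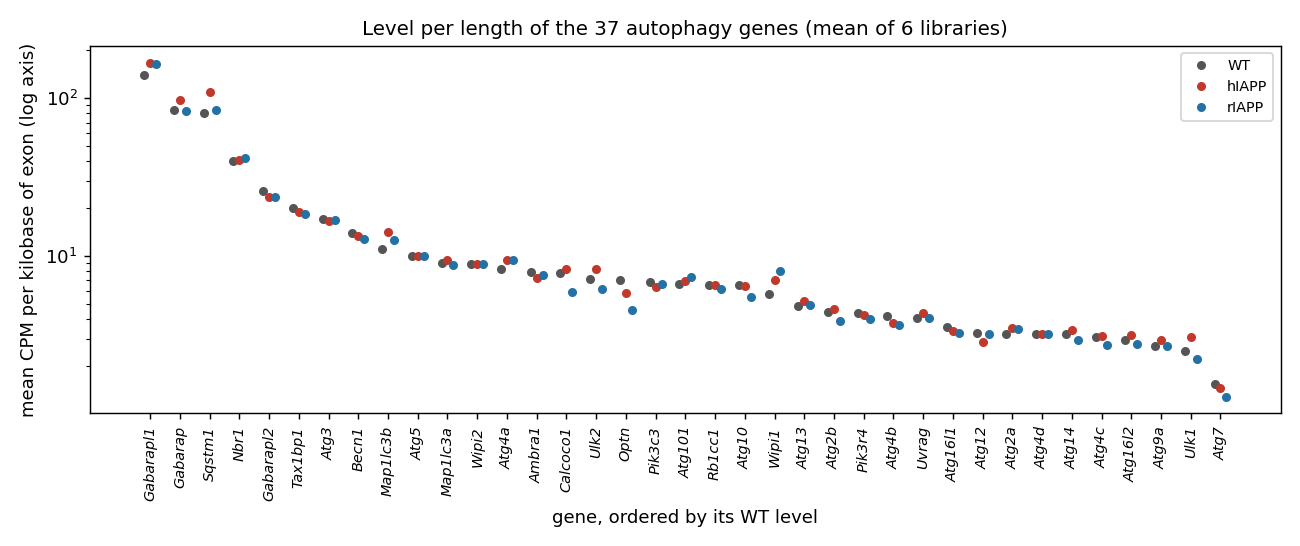
Mean level per length of the 37 genes in each genotype (points, mean of 6 libraries; log axis, CPM per kilobase of exon), ordered by the WT level. Gabarapl1, Gabarap and Sqstm1 stand above the rest in all 3 genotypes, and hIAPP lies highest for Sqstm1.

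In hIAPP against WT, 9 of the 37 genes were called (24.3%, against 15.8% of all genes tested): Ulk1, Ulk2, Wipi1, Map1lc3b, Gabarap, Gabarapl1 and Sqstm1 were higher and Atg12 and Optn lower. The 7 higher and 2 lower compare with 8.31% and 7.53% of all genes called in these directions. For 6 genes all libraries of the genotypes lay apart, 4 higher and 2 lower, against 6.63% of all genes (3.74% higher and 2.89% lower). No gene moved by more than 0.5 on the log2 scale, whereas 14.1% of all genes did. In each comparison the median SE was 0.0605 for the 37 genes and 0.115 for all genes. Shares called or past 0.5 therefore compare genes of unlike precision. The median log2 fold change of the 37 genes was 0.03, beside -0.0098 for all genes. With library totals alone as the scale, which moved the median of all genes to 0.11, 13 were called, 12 higher and 1 lower. That scale called 3619 of all genes. Of the 9 genes, 8 were among these 13 and Atg12 was not.

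In hIAPP against rIAPP, 11 genes were called (29.7%, against 27.6% of all genes). Ulk1, Ulk2, Atg2b, Atg7, Map1lc3b, Gabarap, Sqstm1, Optn and Calcoco1 were higher in hIAPP, and Wipi1 and Atg12 lower, beside 13.5% and 14.1% of all genes called higher and lower. The libraries lay apart for 7 genes, all higher, against 13.4% of all genes (6.52% higher and 6.85% lower). Of the 37 log2 fold changes, 30 were above 0, with a median of 0.07 beside 0.00 for all genes, and 29 were above 0 with library totals alone. No gene was past 0.5 in size, beside 22% of all genes.

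In rIAPP against WT, 12 genes were called (32.4%, against 26.8% of all genes). Wipi1, Map1lc3b and Gabarapl1 were higher, and Ulk2, Becn1, Pik3r4, Atg2b, Atg4b, Atg7, Atg16l1, Optn and Calcoco1 lower, beside 14.1% and 12.6% of all genes called higher and lower. The libraries lay apart for 6 genes, 2 higher and 4 lower, against 14.9% of all genes (8.13% higher and 6.75% lower). This split turned with the scale. With library totals alone the median of all genes stood at 0.10 and 5958 of all genes were called. Of the 37 genes 9 were called, 7 higher and 2 lower, of which 5 were among the 12. The number of genes above 0 was 9 of 37 with TMM and 24 of 37 with library totals alone, and their median was -0.05 and 0.06. Without rIAPP 5, 7 genes were called instead of 12. Optn was the only gene of the 37 past 0.5 on the log2 scale, beside 21% of all genes.

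Over the 3 comparisons, 16 genes were called at least once and 21 never. The acinar share differed with genotype, and with the acinar score (mean log2 level of the acinar markers) as a covariate 2 genes remained called for hIAPP against WT (Wipi1 and Map1lc3b), 11 in hIAPP compared with rIAPP, and 3 for rIAPP against WT (Wipi1, Map1lc3b and Optn). The number of all genes called was also smaller in that fit, falling from 3208 to 766 for hIAPP against WT and from 5417 to 2053 for rIAPP against WT. The 7 calls lost in hIAPP against WT kept their direction, with values of 0.27 for Ulk1, 0.27 for Ulk2, 0.24 for Gabarap, 0.36 for Gabarapl1, 0.29 for Sqstm1, -0.16 for Atg12 and -0.21 for Optn. The part of macrophage, endothelial, stellate and other marker RNA in the results was not tested.

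**Figure D2:**
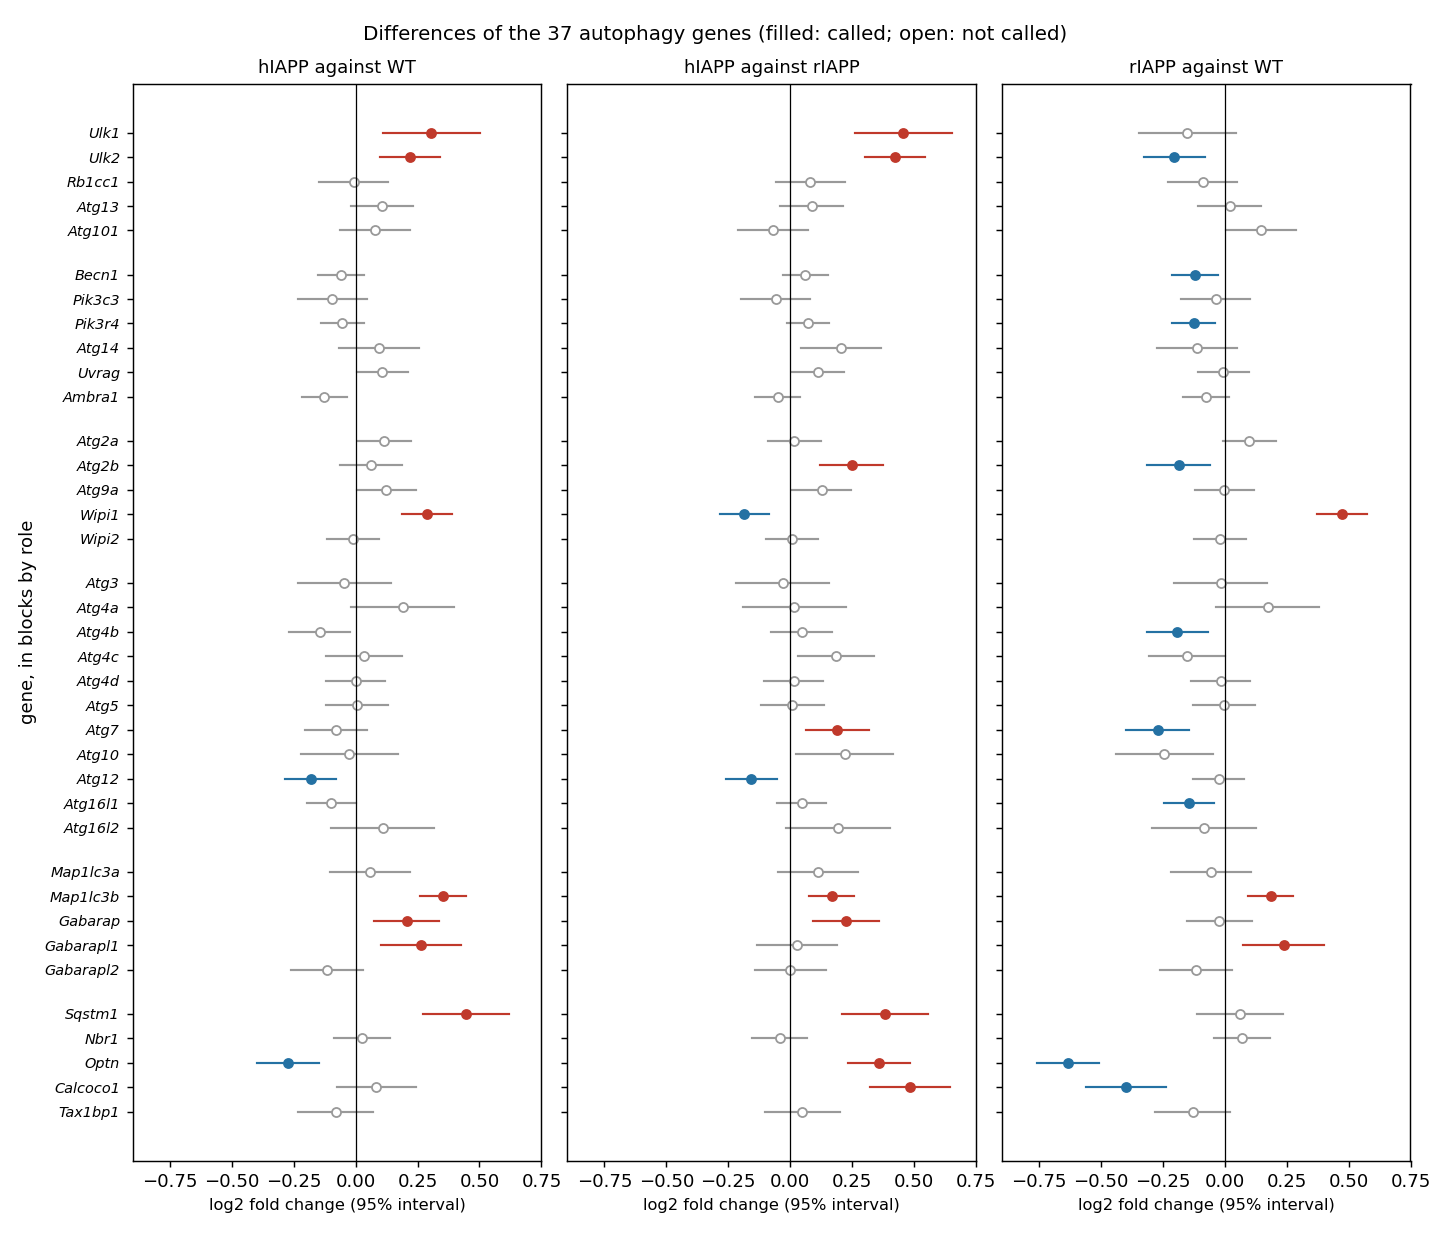
Log2 fold changes of the 37 genes in the 3 comparisons (points, edgeR estimate, filled where called, red higher and blue lower; lines, 95% interval; log2 units), in blocks by role. Most intervals cross 0 and all points lie between -0.63 and 0.48.

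The initiation complex joins the kinases ULK1 and ULK2 to the scaffold FIP200 (Rb1cc1) and to ATG13 and ATG101, and 2 of its 5 genes were higher in hIAPP than in WT. Ulk1 (chromosome 5, 110784488 to 110810097) had a lowest, median and highest level of 14.1, 15.6 and 19.9 CPM in WT, 17.3, 20.6 and 22.4 in hIAPP and 11.7, 14.7 and 16.8 in rIAPP. All hIAPP libraries were above all rIAPP libraries, while hIAPP and WT overlapped through 1 WT library. Its log2 fold change was 0.31 ± 0.09 against WT (adjusted p = 0.0313) and 0.46 ± 0.09 against rIAPP (adjusted p = 9.38e-04). The call against WT was lost without hIAPP 5 and hIAPP 6 (0.25) and when any 1 of 7 libraries was left out: WT 1, WT 3, WT 4, WT 6, hIAPP 4, hIAPP 5 or hIAPP 6. Ulk2 (chromosome 11, 61775649 to 61855073) was at 36.9, 44.3 and 46.2 CPM in WT, 46.7, 49.7 and 52.9 in hIAPP and 33.9, 36.7 and 41.3 in rIAPP. Every hIAPP library exceeded every library of the other genotypes, and WT and rIAPP overlapped. Ulk2 rose by 0.22 ± 0.06 against WT and 0.42 ± 0.06 against rIAPP, and fell by 0.20 in rIAPP against WT (adjusted p = 0.0145, 1.43e-05 and 0.0130). Without hIAPP 5 and hIAPP 6 its adjusted p against WT was 0.0531. The call in rIAPP against WT was lost with library totals alone (-0.08, adjusted p = 0.387) and with the acinar covariate (-0.14, adjusted p = 0.461). Rb1cc1, Atg13 and Atg101 were called in no comparison, and the largest of their values was 0.15 ± 0.07 for Atg101 in rIAPP against WT (adjusted p = 0.123).

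The phosphatidylinositol 3-kinase complex holds the lipid kinase VPS34 (Pik3c3), its regulatory subunit VPS15 (Pik3r4), beclin 1 (Becn1), the alternative partners ATG14 and UVRAG, and AMBRA1, which binds beclin 1. edgeR called none of its 6 genes in hIAPP against WT and none in hIAPP against rIAPP, with 2 genes at an unadjusted p under 0.05 in each (28.6% and 37.7% of all genes). DESeq2 called 1 in each, Ambra1 lower than WT and Atg14 higher than rIAPP. In edgeR, Ambra1 was at -0.13 ± 0.04 against WT (adjusted p = 0.0572) and Atg14 at 0.21 ± 0.08 against rIAPP (adjusted p = 0.0540). In rIAPP against WT, Becn1 and Pik3r4 were lower. Pik3r4 was at 40.3, 42.2 and 44.4 CPM in WT, 39.0, 40.1 and 43.0 in hIAPP and 37.1, 38.4 and 40.2 in rIAPP. All rIAPP libraries were below all WT libraries by a narrow margin. It fell by 0.13 ± 0.04 on the log2 scale in rIAPP (adjusted p = 0.0279). Becn1 was at 93.2, 98.2 and 105.5 CPM in WT, 89.3, 94.1 and 101 in hIAPP and 86.4, 91.1 and 94.1 in rIAPP, a value of -0.12 ± 0.04 in rIAPP against WT (adjusted p = 0.0483). The Becn1 call was lost when any 1 of 14 libraries was left out, and the Pik3r4 call without WT 2, WT 6, rIAPP 1, rIAPP 2, rIAPP 4 or rIAPP 5. With library totals alone both values were near 0 (-0.0021 and -0.0074), and with the acinar covariate both were -0.08. Exons of Becn1 overlap Cntd1, a protein-coding gene on the opposite strand, and 36.8% of the 50-base words of Becn1 occur in other genes. Cntd1 itself averaged 86.6 counts beside 13233 for Becn1.

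Membrane reaches the growing autophagosome through ATG9A vesicles and the lipid transfer proteins ATG2A and ATG2B, and WIPI1 and WIPI2 bind its phosphatidylinositol 3-phosphate. Wipi1 (chromosome 11, 109573331 to 109611967) differed among all genotypes. It was at 23.8, 25.8 and 26.6 CPM in WT, 29.1, 31.0 and 33.3 in hIAPP and 32.2, 35.6 and 37.3 in rIAPP. Both transgenic genotypes lay above WT with no overlap, and hIAPP and rIAPP overlapped. Wipi1 rose by 0.29 ± 0.05 in hIAPP and by 0.47 ± 0.05 in rIAPP against WT, and was at -0.18 ± 0.05 in hIAPP against rIAPP (adjusted p = 3.74e-04, 2.34e-07 and 0.00627). These 3 calls held in each of 29 refits, with the acinar covariate at 0.30 and 0.49 against WT. Its close relative Wipi2 was called in no comparison, with 94.4 ± 2.80, 93.7 ± 6.19 and 93.2 ± 5.15 CPM in WT, hIAPP and rIAPP (SD, n = 6). Within each library the ratio of Wipi1 to Wipi2 counts was 0.251 to 0.284 in WT, 0.301 to 0.362 in hIAPP and 0.345 to 0.398 in rIAPP, so both transgenic genotypes lay above WT in this ratio too. Atg2b was at 52.5, 58.7 and 69.8 CPM in WT, 58.4, 61.6 and 65.1 in hIAPP and 49.5, 50.9 and 56.5 in rIAPP. All hIAPP libraries were above all rIAPP libraries, and WT overlapped both. It was 0.25 ± 0.06 higher in hIAPP than in rIAPP (adjusted p = 0.00392) and fell by 0.19 ± 0.06 in rIAPP against WT (adjusted p = 0.0266), a call lost without any 1 of 7 libraries: WT 1, WT 2, WT 5, rIAPP 2, rIAPP 3, rIAPP 4 or rIAPP 5. That call was also lost with library totals alone (-0.07), with the acinar covariate (-0.12), with the mouse number as a covariate (-0.18) and in a fit of only these 2 genotypes (-0.18). Atg2a and Atg9a were called in no comparison, with values from -0.0023 to 0.13.

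The conjugation enzymes attach ATG12 to ATG5, with ATG7 as the activating enzyme, ATG10 as the carrier and ATG16L1 as the partner of the product, and attach LC3 and GABARAP to lipid through ATG3 after the ATG4 proteases have trimmed them. Of these 11 genes, 1 was called in hIAPP against WT, 2 in hIAPP against rIAPP and 3 in rIAPP against WT. Atg12 was at 23.6, 24.7 and 26.6 CPM in WT, 21.2, 21.99 and 23.4 in hIAPP and 23.0, 24.7 and 26.7 in rIAPP. It was lower in every hIAPP library than in any WT library, while hIAPP and rIAPP overlapped. Atg12 fell by 0.18 ± 0.05 against WT and by 0.16 ± 0.05 against rIAPP on the log2 scale (adjusted p = 0.0162 and 0.0217). With library totals alone neither call held (-0.06 and -0.16). Atg7 was at 10.2, 10.9 and 11.5 CPM in WT, 9.35, 10.3 and 11.1 in hIAPP and 7.76, 9.11 and 9.62 in rIAPP. All rIAPP libraries were below all WT libraries, and hIAPP overlapped both. The rIAPP value was -0.27 ± 0.06 against WT (adjusted p = 0.00188), and hIAPP was 0.19 ± 0.06 above rIAPP (adjusted p = 0.0227), a call lost without hIAPP 4 or without rIAPP 3. The call in hIAPP against rIAPP was also lost with library totals alone, without a filter on low counts and with the mouse number as a covariate. Its value stayed between 0.15 and 0.24 in the 29 refits. The call against WT was lost with library totals alone (-0.15, adjusted p = 0.108) and with the acinar covariate (-0.26, adjusted p = 0.112).

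Atg4b and Atg16l1 were lower in rIAPP than in WT by 0.19 ± 0.06 and 0.14 ± 0.05 on the log2 scale (adjusted p = 0.0191 and 0.0295). Atg4b was at 34.1, 34.4 and 35.4 CPM in WT, 26.8, 32.1 and 34.9 in hIAPP and 28.8, 29.4 and 34.5 in rIAPP, where 1 library lay among the WT values and the other rIAPP libraries below them. Atg16l1 was at 32.7, 34.0 and 37.02 CPM in WT, 30.0, 32.2 and 33.7 in hIAPP and 27.8, 31.4 and 33.3 in rIAPP, with overlap. The Atg4b call was lost without rIAPP 5, and the Atg16l1 call without WT 4, WT 5, hIAPP 3, rIAPP 2, rIAPP 3 or rIAPP 5. Both calls were also lost with library totals alone (-0.07 and -0.03), with the acinar covariate (-0.06 and -0.05) and with the mouse number as a covariate (-0.15 and -0.14). The Atg16l1 call was lost in a fit of only these 2 genotypes too (-0.14). Atg3, Atg4a, Atg4c, Atg4d, Atg5, Atg10 and Atg16l2 were called in no comparison. DESeq2 called Atg10 lower in rIAPP than in WT, where edgeR gave -0.24 ± 0.09 (adjusted p = 0.0606). Atg5 stayed within 0.01 of 0 in each comparison, with SEs of 0.06. Of the 50-base words of Atg4a, 51.2% also occur in other genes, mainly its pseudogene Atg4a-ps, so its level of 22.1 ± 4.03 CPM in WT is uncertain.

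The LC3 and GABARAP family is the group that becomes attached to the membrane and binds the cargo receptors. Of its 5 genes, 3 were higher in hIAPP than in WT (Map1lc3b, Gabarap and Gabarapl1), 2 were higher in hIAPP than in rIAPP (Map1lc3b and Gabarap) and 2 were higher in rIAPP than in WT (Map1lc3b and Gabarapl1). Map1lc3b, which encodes LC3B (chromosome 8, 121590361 to 121598760), was at 78.8, 83.5 and 89.3 CPM in WT, 100.5, 106 and 111.5 in hIAPP and 89.98, 94.97 and 99.0 in rIAPP. The 3 genotypes did not overlap: WT was lowest, rIAPP intermediate and hIAPP highest. Map1lc3b rose by 0.35 ± 0.04 in hIAPP and by 0.19 ± 0.04 in rIAPP against WT, and was 0.17 ± 0.04 higher in hIAPP than in rIAPP (adjusted p = 1.86e-05, 0.00296 and 0.00674). These calls held in each of 29 refits, with values against WT of 0.42 and 0.27 given the acinar covariate. Gabarap (chromosome 11, 69991143 to 69994951) was at 146, 153.9 and 172 CPM in WT, 157.9, 182.7 and 191 in hIAPP and 139.6, 149.6 and 178.5 in rIAPP. Its ranges overlapped in every comparison, and it was 0.21 ± 0.06 higher in hIAPP than in WT and 0.23 ± 0.06 higher than in rIAPP (adjusted p = 0.0329 and 0.0108). The call against WT was lost without WT 1, WT 2, WT 3, WT 5, hIAPP 1 or hIAPP 2. Gabarapl1 (chromosome 6, 129533160 to 129542346) was at 252, 285.9 and 298 CPM in WT, 263.6, 340.1 and 385 in hIAPP and 288.6, 333 and 357 in rIAPP. In each transgenic genotype 5 of the 6 libraries lay above the WT range, and the values were 0.26 ± 0.08 and 0.24 ± 0.08 for hIAPP and rIAPP against WT (adjusted p = 0.0249 and 0.0271). Both Gabarapl1 calls were lost without WT 4, the first also without hIAPP 1 or hIAPP 2 and without hIAPP 5 and hIAPP 6 together, and the second also without WT 5 or rIAPP 3.

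Map1lc3a and Gabarapl2 were called in no comparison. Map1lc3a, the gene of LC3A, was at 10.7 ± 0.661 CPM in WT, 11.1 ± 1.40 in hIAPP and 10.3 ± 0.697 in rIAPP (SD, n = 6). Gabarapl2 was at 59.6 ± 3.03, 55.1 ± 6.50 and 55.0 ± 3.82 CPM, and 12.2% of its 50-base words occur in other genes, pseudogenes foremost. The ratio of Map1lc3b to Gabarapl2 counts, which does not depend on the scaling of a library, was 1.32 to 1.52 in WT, 1.63 to 1.85 in rIAPP and 1.78 to 2.26 in hIAPP. Every transgenic library exceeded every WT library in that ratio, and the transgenic genotypes overlapped. Per length, Gabarapl1 made up 51.7% ± 1.76 of the family in WT, 53.6% ± 3.26 in hIAPP and 56.2% ± 3.07 in rIAPP, Gabarap 31.3%, 31.3% and 28.4%, and Map1lc3b 4.11%, 4.55% and 4.31%. LC3B, the family member most often followed in assays of autophagy, was thus a small share of the family's RNA, and GABARAP types made up most of it in each genotype.

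The largest value of each comparison belonged to a cargo receptor: Sqstm1 in hIAPP against WT, Calcoco1 in hIAPP against rIAPP and Optn in rIAPP against WT. Sqstm1, the gene of p62 (chromosome 11, 50199366 to 50210827), was at 257, 258.6, 264.6, 266.6, 280.1 and 296.5 CPM in the WT libraries, and at 331, 335, 336, 341, 401 and 465 CPM in the hIAPP libraries. The rIAPP libraries were at 240.6, 270.4, 281.7, 292, 293 and 317 CPM. Every hIAPP library exceeded every library of the other genotypes, 4 of them lay close together, and hIAPP 5 (465) and hIAPP 6 (401) were highest. Sqstm1 rose by 0.44 ± 0.08 against WT (adjusted p = 0.00112), or 1.36-fold, and by 0.38 ± 0.08 against rIAPP (adjusted p = 0.00158), while rIAPP and WT differed by 0.06 ± 0.08 (adjusted p = 0.651; 95% interval -0.11 to 0.24). Without hIAPP 5 and hIAPP 6, the hIAPP libraries with the highest macrophage and acinar shares, the value against WT was 0.32 (adjusted p = 0.0055). With the acinar covariate it was 0.29 (adjusted p = 0.155). Nbr1, a related receptor, was at 274 ± 13.6, 279 ± 19.9 and 287.5 ± 9.64 CPM in WT, hIAPP and rIAPP and was called in no comparison. The ratio of Sqstm1 to Nbr1 counts was 0.897 to 1.10 in WT, 1.117 to 1.72 in hIAPP and 0.807 to 1.11 in rIAPP, with every hIAPP library above all others. Per length, Sqstm1 made up 51.9% ± 2.01 of the 5 receptors' RNA in WT, 59.6% ± 4.31 in hIAPP and 54.3% ± 2.83 in rIAPP. Mrnip, a protein-coding gene on the opposite strand, overlaps Sqstm1 but averaged 278 counts beside 42690.

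Optn encodes optineurin, a receptor for ubiquitinated mitochondria and bacteria (chromosome 2, 5020642 to 5064051). It was at 24.4, 26.1 and 30.4 CPM in WT, 18.3, 22.2 and 23.2 in hIAPP and 16.5, 17.1 and 17.4 in rIAPP. The 3 genotypes did not overlap, with WT highest and rIAPP lowest. Optn fell by 0.27 ± 0.06 in hIAPP and by 0.63 ± 0.06 in rIAPP against WT on the log2 scale, and was 0.36 ± 0.06 higher in hIAPP than in rIAPP (adjusted p = 0.00408, 9.43e-08 and 1.18e-04). With the acinar covariate the values against WT were -0.21 (adjusted p = 0.181) and -0.55 (adjusted p = 6.93e-04). Calcoco1, a receptor for the endoplasmic reticulum, was at 39.2, 42.9 and 54.9 CPM in WT, 40.7, 47.9 and 50.8 in hIAPP and 30.3, 34.3 and 38.0 in rIAPP. All rIAPP libraries were below all others, by 0.40 ± 0.08 against WT and 0.48 ± 0.08 against hIAPP (adjusted p = 5.08e-04 and 7.32e-05), while hIAPP was at 0.08 ± 0.08 against WT (adjusted p = 0.534). With the acinar covariate the rIAPP value against WT was -0.34 and not called (adjusted p = 0.104). Tax1bp1, a receptor that works with Nbr1 and p62, was at 200.2 ± 20.3, 189 ± 15.2 and 183 ± 14.8 CPM and was called in no comparison. The cargo receptors did not move together: Sqstm1 was higher in hIAPP than in both other genotypes, Optn was lower in both transgenic genotypes than in WT, and Calcoco1 was lower in rIAPP than in both others.

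**Figure D3:**
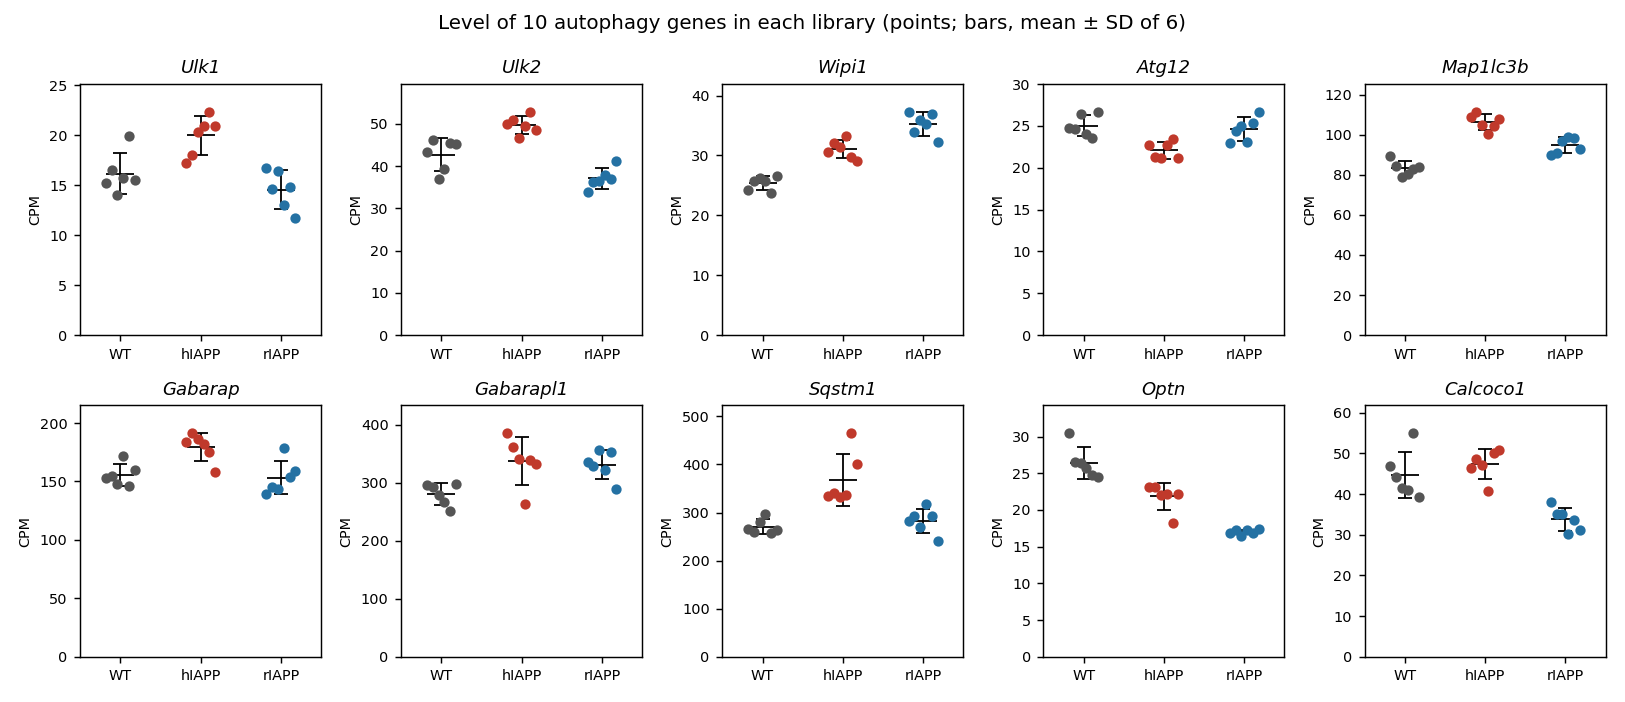
CPM of 10 of the 16 called genes in each library (points; horizontal bar and whiskers, mean ± SD of 6 mice; each axis starts at 0). The hIAPP points stand above all others for Ulk2, Map1lc3b and Sqstm1, and the rIAPP points stand highest on average for Wipi1 and below all others for Optn and Calcoco1.

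**Figure D4:**
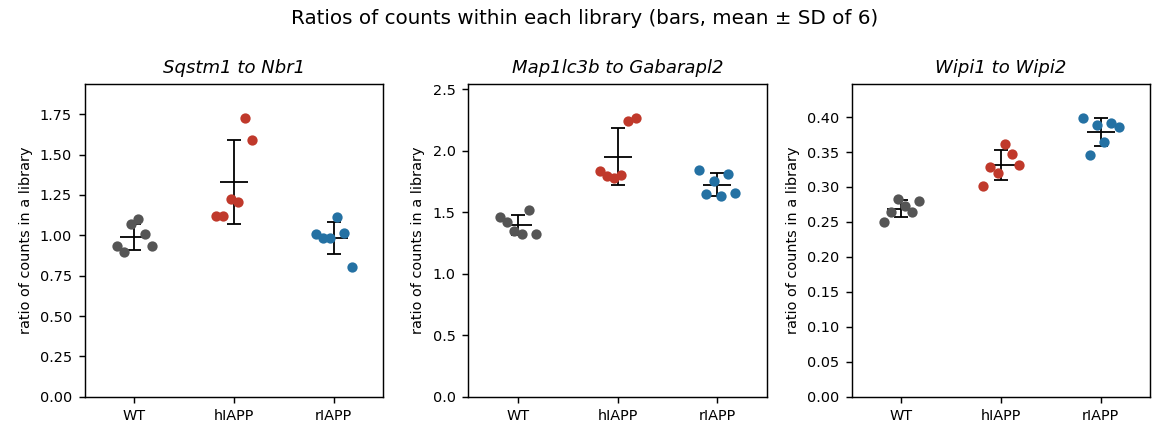
Ratio of counts of 2 genes within each library (points; bar and whiskers, mean ± SD of 6 mice), which does not depend on library scaling. Sqstm1 to Nbr1 is highest in hIAPP (mean 1.33 against 0.990 in WT and 0.984 in rIAPP), Map1lc3b to Gabarapl2 is higher in both transgenic genotypes (1.95 and 1.73 against 1.40), and Wipi1 to Wipi2 rises from WT (0.269) through hIAPP (0.332) to rIAPP (0.379).

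Ratios were also taken for Ulk2 to Rb1cc1, Optn to Tax1bp1 and Calcoco1 to Tax1bp1. For Ulk2, hIAPP (0.495 to 0.540) lay above WT (0.399 to 0.472) and rIAPP (0.372 to 0.492). For Optn, hIAPP (0.109 to 0.124) lay within WT (0.10345 to 0.149), and rIAPP (0.0856 to 0.10311) just below WT. For Calcoco1, WT (0.166 to 0.314), hIAPP (0.217 to 0.298) and rIAPP (0.154 to 0.232) overlapped. The partner genes of these ratios were chosen after their values had been seen, and no test was made. The 21 genes called in no comparison, and the other genes wherever they were not called, had 95% intervals within 0.5 of 0 on the log2 scale. The widest reached -0.27 (Atg4b) and 0.40 (Atg4a) in hIAPP against WT, -0.22 (Atg3) and 0.42 (Atg10) in hIAPP against rIAPP, and -0.44 (Atg10) and 0.38 (Atg4a) in rIAPP against WT.

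Genes that act around the core machinery were read in 5 further lists of 66 genes, of which 65 were tested. In hIAPP against WT, 16 were called, 12 higher and 4 lower. In hIAPP against rIAPP, 30 were called, 23 higher and 7 lower, and in rIAPP against WT 25, 8 higher and 17 lower. The background shares are those given above. With library totals alone as the scale, the splits were 23 higher and no lower in hIAPP against WT (12 of these 23 among the 16), 22 higher and 6 lower in hIAPP against rIAPP, and 14 higher and 5 lower in rIAPP against WT. In the main fit with TMM, the medians of the 65 tested genes were 0.03, 0.12 and -0.04 on the log2 scale.

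Among 10 cofactors of the growing membrane, 1 rose and 1 fell in hIAPP against WT: Wdr45, a relative of the WIPI proteins (0.38 ± 0.07, adjusted p = 8.88e-04), and Tmem41b, a lipid scramblase (-0.18 ± 0.05, adjusted p = 0.0178). Trp53inp2, which shuttles LC3 from the nucleus, was at 90.4, 101 and 128 CPM in WT, 103, 128 and 139 in hIAPP and 58.8, 65.5 and 71.1 in rIAPP. All rIAPP libraries were below all others, with -0.69 ± 0.09 against WT (adjusted p = 3.75e-06) and 0.94 ± 0.09 for hIAPP against rIAPP (adjusted p = 6.79e-08). Among 14 genes of fusion with the lysosome, Stx17, the autophagosomal SNARE, was the 1 gene higher in hIAPP than in WT (0.22 ± 0.05, adjusted p = 0.0034). In rIAPP against WT, 1 of the 14 was higher and 5 lower, among them the tethering subunits Vps39 (-0.34 ± 0.05), Vps11 (-0.44 ± 0.07) and Vps18 (-0.26 ± 0.05), with adjusted p of 3.78e-05, 6.29e-05 and 9.08e-04. In hIAPP against rIAPP, 5 of these 14 were higher and 1 was lower, including Epg5 (0.27 ± 0.06, adjusted p = 0.00134).

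Among 13 tested receptors of selective autophagy, Retreg1, a receptor for the endoplasmic reticulum, was at 10.3, 11.6 and 13.0 CPM in WT, 16.4, 19.9 and 28.3 in hIAPP and 24.1, 29.4 and 31.9 in rIAPP. Both transgenic genotypes lay above WT, by 0.89 ± 0.12 and 1.31 ± 0.12 (adjusted p = 2.67e-05 and 3.55e-08), and hIAPP was at -0.42 ± 0.11 against rIAPP (adjusted p = 0.00893). Tex264, another such receptor, was 0.22 ± 0.06 higher in hIAPP and 0.18 ± 0.06 lower in rIAPP than in WT (adjusted p = 0.0171 and 0.0374). In the list these 2 genes were the ones called in hIAPP against WT, while 2 were higher and 3 lower in hIAPP against rIAPP, and 2 higher and 2 lower in rIAPP against WT.

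Of 18 genes of nutrient and energy control, 5 rose and 3 fell in hIAPP against WT, with 10 and 1 for hIAPP against rIAPP and 1 and 7 for rIAPP against WT. Sesn2, a stress-induced inhibitor of mTORC1, was at 22.2, 23.9 and 26.4 CPM in WT, 35.4, 36.4 and 57.2 in hIAPP and 37.8, 46.4 and 47.6 in rIAPP. Both transgenic genotypes lay above WT (0.76 ± 0.10 and 0.87 ± 0.10, adjusted p = 4.27e-05 and 1.62e-06). The mTORC1 inhibitor Akt1s1 and the mTOR-binding Deptor were 0.23 ± 0.05 and 0.41 ± 0.09 higher in hIAPP than in WT (adjusted p = 0.00395 and 0.00473). Tsc1, which restrains Rheb, the Rag GTPase Rragd and the Rag regulator Flcn were 0.46 ± 0.07, 0.32 ± 0.06 and 0.56 ± 0.10 higher in hIAPP than in rIAPP (adjusted p = 1.99e-05, 1.96e-04 and 2.47e-04). Rragb and Mtor were lower in rIAPP than in WT, by 0.44 ± 0.06 and 0.24 ± 0.04 (adjusted p = 2.60e-05 and 2.82e-04).

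Of 10 transcription factors that act on autophagy genes, 3 were called in hIAPP against WT, each of them higher. Ddit3, the gene of CHOP, was at 11.9, 15.1 and 19.0 CPM in WT, 28.4, 34.3 and 65.0 in hIAPP and 17.3, 21.5 and 24.7 in rIAPP. All hIAPP libraries were above all others (1.36 ± 0.17 against WT and 0.87 ± 0.17 against rIAPP, adjusted p = 1.78e-05 and 4.89e-04). Ddit3 was also higher in rIAPP than in WT, with overlap (0.49 ± 0.17, adjusted p = 0.0329). Mitf and Atf4 were 0.54 ± 0.12 and 0.30 ± 0.08 higher in hIAPP than in WT (adjusted p = 0.00399 and 0.0146), and 0.41 ± 0.12 and 0.26 ± 0.08 higher in rIAPP than in WT (adjusted p = 0.0126 and 0.0197). Nfe2l2, the gene of NRF2, was at -0.27 ± 0.06 in rIAPP against WT (adjusted p = 0.00203) and was 0.23 ± 0.06 higher in hIAPP than in rIAPP (adjusted p = 0.00623).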

How the data were processed

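The values are estimated counts per gene symbol that the authors deposited without normalisation. Per the submitters' processing notes, STAR, HTSeq, GRCm38 and mm10 were used, while no source used here gives versions, the annotation, the strand setting or the step that made values fractional. Per the labels' protocols, RNA came from about 165 islets per mouse and libraries were depleted of ribosomal RNA. Of the values above 0, 39.2% (182064) were not whole numbers with no tolerance allowed, and all were rounded. Counts were fitted with edgeR 4.0.16 in R 4.3.3 (TMM factors, filterByExpr by genotype, quasi-likelihood F test, two-sided, 1 mean per genotype over 18 libraries), with Benjamini-Hochberg adjustment within a comparison. The depth of 109.6 to 166.23 M counts per library sets the counting error, which intervals from the fit include. Exon lengths, positions and 50-base words came from GENCODE M21 and promoter windows from RefSeq. Genes called in at least 1 comparison are given in full, and of the wider lists up to 3 called genes per list and comparison with the smallest p. Pairs for ratios and genes beyond the rule are marked. The 37 genes and all lists were chosen with earlier results of these data known. Alternatives were DESeq2 1.42.0, other scaling, filters, covariates and thresholds, and leaving out libraries. The script was tested on simulated data. Each mouse is 1 replicate. Proteins were not used here.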

Additional observations from a re-analysis of the deposited data

Results flagged for a closer look

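In 5 of 111 sets of 6 libraries (37 genes in 3 genotypes), 1 library stood apart from the other 5 by more than Dixon's 95% critical value for 6 values. Chance gives about 1 in 20 sets. Rb1cc1, the scaffold of the initiation complex, was at 86.4 CPM in hIAPP 3 and 96.9 to 101 in the other hIAPP libraries. Atg4b was at 34.5 CPM in rIAPP 4 and 28.8 to 30.3 in the others, Atg7 at 7.76 CPM in rIAPP 3 and 8.95 to 9.62 in the others. Optn was at 30.4 CPM in WT 1 (24.4 to 26.5 in the others) and at 18.3 CPM in hIAPP 5 (22.1 to 23.2 in the others). The calls of Optn in all 3 comparisons and of Atg7 in rIAPP against WT held without any of these libraries. The Atg7 call in hIAPP against rIAPP was lost without rIAPP 3.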

How the results depend on the processing

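The 3 comparisons gave 32 calls of the 37 genes. Of these, 14 held in all 29 refits at an adjusted p under 0.05 (11 other settings and 18 runs without 1 library), 18 were lost in at least 1, and none was reversed. The stricter threshold of 0.01 is not among these 29. Given the acinar score as a covariate, edgeR called 2 genes in hIAPP against WT and 3 in rIAPP against WT (wider genes 8 and 7). With the mouse number from the titles as a covariate, 7 were called in rIAPP against WT, beside 5015 of all genes. At an adjusted p under 0.01, 4 were called in hIAPP against WT and 5 in rIAPP against WT (wider genes 10 and 13). That threshold called 1490 and 3598 of all genes. When each library was left out in turn, the count of called genes ranged from 7 to 10 in hIAPP against WT, 10 to 13 in hIAPP against rIAPP and 7 to 14 in rIAPP against WT, the lowest without rIAPP 5. The wider genes ranged from 14 to 23, 26 to 33 and 21 to 27. Without hIAPP 5 and hIAPP 6 the counts of the 37 genes were 6, 13 and 12, beside 1675, 5131 and 5771 of all genes. DESeq2 called 10, 12 and 13, beside 3831, 6123 and 5920 of all genes. Without a filter on low counts the counts were 8, 9 and 8, beside 2493, 4838 and 4814 of all genes. The cause of these differences was not tested. No paired analysis was possible because the numbers of the libraries follow the order of the labels and the genotypes share none. Depth limits little here, since every gene of the 37 had at least 1037 counts in each library, while the spread over 6 mice sets the intervals.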
